A study of Mus musculus with 22 samples.

Results

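Skin libraries of 8 mice were divided by how much hair shaft transcript they held. The libraries were chosen by the counts of 55 rows of the tissue table named KRTAP, the keratin-associated proteins that fill the space between keratin filaments in the hair shaft. Their CPM, the counts scaled to a fixed total per library, were summed in each library. The 4 libraries with the highest sum are called hair-high here and the other 4 hair-low, whatever their genotype. They are 8 of the 22 libraries of the series, which also holds whole blood of the same 8 animals and 6 cultures of primary keratinocytes. Transgenic animals (TG) carried K5-VGLL3, the transcriptional cofactor VGLL3 driven by the promoter of keratin 5, which is active in basal epidermal keratinocytes and in the outer root sheath of the hair follicle. Wild-type animals (WT) of matched age and sex were the controls, and the skin was nonlesional. Neither the age of these animals nor the body site of the skin is stated.

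The hair-high side held 1 transgenic and 3 wild-type libraries (TG2, WT1, WT4 and WT3), and the hair-low side 3 transgenic and 1 wild-type library (TG1, TG3, TG4 and WT2). Values below follow these orders. Each side had 2 males and 2 females. In females the split and the genotype cannot be told apart, since both hair-high females were wild type and both hair-low females transgenic. Beside genotype, the comparison sets TG2 against the other 3 transgenic libraries and WT2 against the other 3 wild-type libraries. Vgll3 itself stood at 778, 72.7, 49.1 and 43.5 CPM in hair-high skin, against 99.0, 123, 92.1 and 92.4 CPM in hair-low skin. TG2 was thus far above every other library, and the remaining transgenic libraries were not separated from WT2. Whether reads of the transgene count toward Vgll3 is not stated. Total counts of the skin libraries ranged from 19600892 to 40678246. The keratins of basal cells, Krt5 at 2540 to 4689 CPM and Krt14 at 1266 to 2236 CPM, were present in all 8 libraries.

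The hair follicle passes through repeated cycles of growth (anagen), regression (catagen) and rest (telogen). In anagen, matrix cells around the dermal papilla divide and give rise to the hair shaft and to the inner root sheath that encloses it, while melanocytes of the bulb pass pigment to the shaft. Sonic hedgehog from the matrix, and Wnt and BMP signals, take part in this growth, and resting follicles keep their stem cells in the bulge.

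The KRTAP sum was 102, 249, 915 and 24398 CPM in hair-high skin, against 6.06, 4.91, 4.79 and 6.33 CPM in hair-low skin. The lowest hair-high library, TG2, lay 16.1-fold above the highest hair-low library, WT2, and this gap is where the rule cut. Within the hair-high side the sums spanned 239-fold, and within the hair-low side 1.32-fold. The library WT3 alone had 26.7 times the sum of the next one. Of the 55 rows, 40 had no count in any hair-low library, 1 had none in any of the 8, and 39 had every hair-high value above every hair-low value. Of the 686 KRTAP counts in hair-low skin, 649 fell on Krtap3-2, Krtap3-3 and Krtap17-1. Krtap3-2 was at 1.48, 2.70, 22.2 and 444 CPM in hair-high skin, against 5.07, 3.69, 3.60 and 5.74 CPM in hair-low skin, so that its groups overlapped. These rows chose the libraries and were left out of the gene-by-gene test between the 2 sides.

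**Figure D1:**
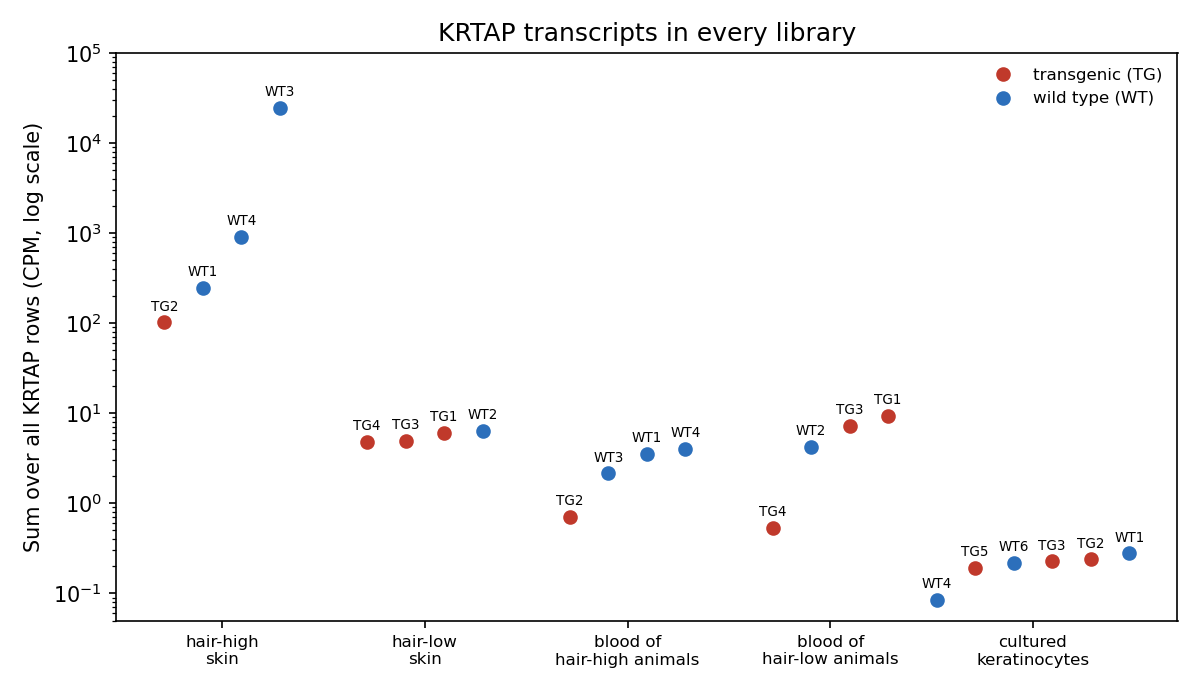
Each point is the sum of all KRTAP rows in 1 library, in CPM on a log axis, with transgenic libraries in red and wild-type libraries in blue. Hair-high skin spans 102 to 24398 CPM and hair-low skin 4.79 to 6.33 CPM, while blood of the same animals lies between 0.531 and 9.32 CPM and cultured keratinocytes between 0.0851 and 0.279 CPM.

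The make-up of the KRTAP counts is given as a description, since the same counts ranked the libraries and the families were grouped after their values were seen. Krtap7-1 and Krtap8-1, which belong to the glycine- and tyrosine-rich class, and Krtap11-1, of the cysteine-rich class, made up 81.8% of KRTAP counts in TG2 (exact binomial 95% interval 80.4% to 83.0%), 68.1% in WT1, 48.3% in WT4 and 35.5% in WT3 (35.4% to 35.6%). The 17 rows of families 1, 3, 4 and 9, which are rich in cysteine, held 6.76%, 9.54%, 31.5% and 25.6%. Families 6, 19, 21 and 22, rich in glycine and tyrosine, held 3.44%, 10.5%, 2.74% and 15%, with no order by the sum. These intervals cover counting error only, and each percentage describes 1 library.

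Krtap8-1 had the highest mean of the KRTAP rows. It stood at 35.0, 72.9, 219 and 4142 CPM in hair-high skin, against 0.169, 0, 0.0554 and 0.0696 CPM in hair-low skin. Krtap7-1 stood at 24.8, 54.2, 108 and 3010 CPM in hair-high skin and had no count in hair-low skin. Krtap15, at 2.27, 14.7, 8.23 and 2626 CPM, and Krtap14, at 0.696, 5.05, 5.80 and 1291 CPM in hair-high skin, also had no count in hair-low skin. In both, WT3 stood far above the other 3 hair-high libraries. Krtap11-1 was at 23.6, 42.2, 114 and 1510 CPM in hair-high skin, against 0.0282, 0.0424, 0.0830 and 0.209 CPM in hair-low skin.

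Hair keratins and other proteins of the shaft belong to the same structure and are only described here. They stayed in the test of all other genes below, where 5 of them were called. Krt35, an early keratin of the hair cortex, stood at 129, 321, 423 and 918 CPM in hair-high skin, against 0.374, 0.244, 0.162 and 0.438 CPM in hair-low skin. Krt34, expressed higher up in the cortex, stood at 1.08, 4.58, 47.1 and 1180 CPM in hair-high skin, and had 3 counts in all of hair-low skin. The step from TG2 to WT3 was therefore much wider for Krt34 than for Krt35. The 16 hair keratins summed to 266 to 10659 CPM in hair-high skin and to 9.65 to 12.4 CPM in hair-low skin.

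All other genes were compared with edgeR's quasi-likelihood test with genotype as covariate. A gene was called at a Benjamini-Hochberg adjusted p under 0.05 over all 18677 genes tested. The p-value measures association with a split made on the same RNA, and not a comparison of treatments. The libraries come from separate animals. Of the genes tested, 137 (0.734%) were called higher and 101 (0.541%) lower in hair-high skin, and the median log2 fold change of all genes was -0.02. Among the 137, 5 belong to the shaft lists. All hair-high values lay above all hair-low values in 131 of the 137, and below in 100 of the 101, against 10.4% (above) and 8.46% (below) of all genes tested. Beside the split, the genotype term called 0 genes with edgeR, and 1506 had an unadjusted p under 0.05.

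For a reason that was not tested, the edgeR calls depended on including TG2. Without it edgeR called 0 genes, as did limma-voom, although 3429 genes had an unadjusted p under 0.05 and DESeq2 called 902 higher and 477 lower. Without TG2 all transgenic libraries are hair-low, and beside genotype the split then rests on WT2 alone against 3 wild-type libraries. The 137 and 101 genes, which were called on these same libraries, had the same direction in that fit, which is therefore no independent check. TG2 had the lowest level of the hair-high libraries in 77 of the 137 genes called higher. It also had the lowest in 63 of the 101 called lower, where it stood farthest from hair-low skin. Leaving out 1 of the other libraries gave 25 to 285 higher and 7 to 209 lower calls, and the lowest of these came without TG1 (25 and 8), TG3 (39 and 7) and TG4 (33 and 11).

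**Figure D2:**
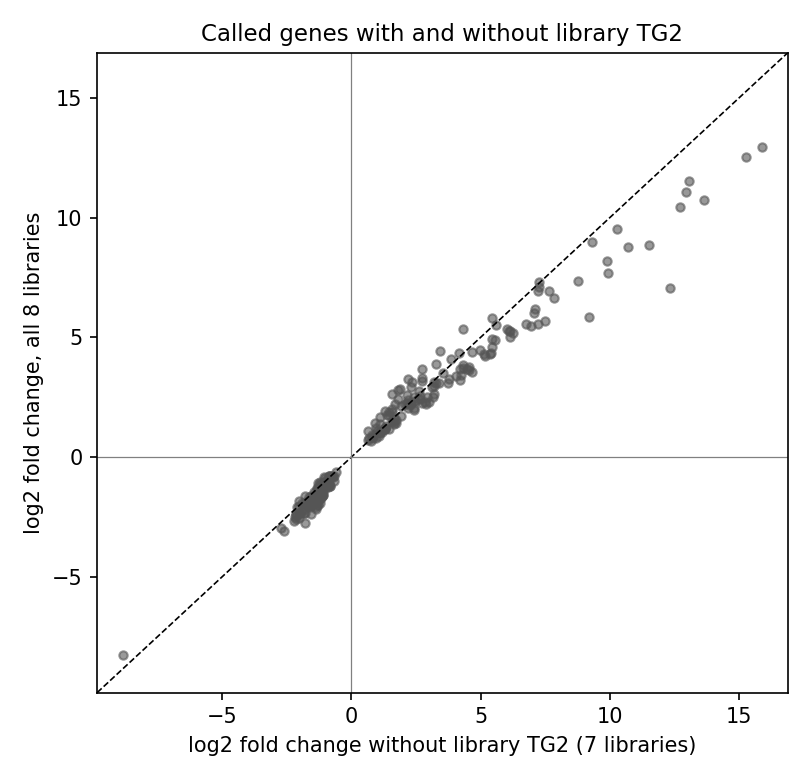
Each point is 1 of the genes called between hair-high and hair-low skin, with its log2 fold change over 7 libraries without TG2 (horizontal) and over all 8 (vertical), and the dashed line marks equal values. All 137 genes called higher stay above 0 and all 101 called lower stay below 0 on both axes.

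The inner root sheath, the layer that guides the growing shaft, had the largest median difference outside the shaft lists. In bulk libraries such as these, fewer cells of a type and less RNA per cell cannot be told apart. All 16 genes of its list were tested. Of these, 8 were called higher and 0 lower, the median log2 fold change was 6.30, and 11 had hair-high values all above the hair-low ones. Krt71 (chromosome 15, 101733949 to 101743109, minus strand, mm10), a keratin of all layers of this sheath, was at 1350, 2844, 4625 and 14791 CPM in hair-high skin, against 1.04, 1.71, 0.701 and 0.876 CPM in hair-low skin. No value of one side came near the other. Its log2 fold change was 11.52 ± 1.08 (SE, edgeR adjusted p = 0.00597).

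Its partner keratin Krt25 (chromosome 11, 99315516 to 99322951, minus strand) had 708, 1308, 2489 and 6069 CPM in hair-high skin, against 0.259, 0.366, 0.297 and 0.0796 CPM in hair-low skin (log2 fold change 12.51 ± 1.05, edgeR adjusted p = 0.00557). Krt73, Krt27 and Krt28, further keratins of the sheath, had log2 fold changes of 11.05, 10.45 and 7.35, with edgeR adjusted p of 0.00428, 0.0223 and 0.0203. Tchh, trichohyalin, which hardens the sheath and the medulla, was at 732, 1728, 2805 and 15067 CPM in hair-high skin, against 7.92, 5.33, 10.1 and 6.89 CPM in hair-low skin (log2 fold change 8.20, edgeR adjusted p = 0.0306). WT3 led in each of these 6 genes and TG2 was lowest. Gata3, a regulator of this sheath that other skin cells also express, did not separate: 203, 168, 165 and 157 CPM in hair-high skin, against 170, 236, 316 and 187 CPM in hair-low skin.

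The starts of these genes are shown because the word TATAAA recurs in promoters of shaft and sheath genes. The sequences are the 250 bases before the transcription start from RefSeq (GRCm38.p6), read along the gene's strand, and the capitals mark that word, sought on both strands.
Krtap8-1 (chr16:89487953-89488202, minus strand): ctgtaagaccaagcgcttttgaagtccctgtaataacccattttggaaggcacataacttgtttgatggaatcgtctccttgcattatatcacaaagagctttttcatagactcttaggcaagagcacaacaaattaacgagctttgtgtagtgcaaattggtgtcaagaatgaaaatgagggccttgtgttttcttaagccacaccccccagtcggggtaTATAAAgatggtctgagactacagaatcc
Krt71 (chr15:101743098-101743347, minus strand): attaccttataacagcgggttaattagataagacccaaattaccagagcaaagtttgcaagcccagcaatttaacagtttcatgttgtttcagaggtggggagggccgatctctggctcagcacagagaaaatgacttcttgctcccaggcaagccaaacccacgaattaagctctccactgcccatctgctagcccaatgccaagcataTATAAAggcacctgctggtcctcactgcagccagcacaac
TATAAA began 29 bases before the start in Krtap8-1 and 40 bases before it in Krt71. The promoters printed, here and below, were picked from those that hold the word sought. TATAAA occurred in promoters of 40 of 50 KRTAP genes (80.0%), 8 of 12 inner root sheath genes (66.7%) and 6 of 9 hair keratins (66.7%). Of all 27025 genes with a promoter in the table, 14.3% held it. A gene counted once if any of its promoters held the word. Among the called genes with a promoter it occurred in 15 of 94 called higher and 12 of 76 called lower (15.8%). A match describes these letters and does not show a bound site.

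Of 22 tested matrix regulators, on a list of 23, 8 were called higher and 0 lower, with a median log2 fold change of 0.97. Shh (chromosome 5, 28456815 to 28467256, minus strand), the hedgehog ligand of the matrix, stood at 6.76, 10.7, 20.1 and 9.69 CPM in hair-high skin, against 0.0864, 0.0814, 0.270 and 0.279 CPM in hair-low skin. The highest value was in WT4 and not in WT3, and the groups were far apart (log2 fold change 5.50 ± 0.49, edgeR adjusted p = 0.00565). Lef1, the Wnt-responsive transcription factor of the matrix, was at 21.1, 49.7, 63.1 and 83.9 CPM in hair-high skin, against 3.02, 3.62, 2.89 and 4.78 CPM in hair-low skin (log2 fold change 3.25 ± 0.30, edgeR adjusted p = 0.00597). Hoxc13, a homeobox factor required for hair keratin expression, was at 47.6, 69.1, 111 and 175 CPM in hair-high skin, against 6.37, 11.7, 7.47 and 8.84 CPM in hair-low skin (log2 fold change 3.11, edgeR adjusted p = 0.0289). The homeobox genes Dlx4 and Dlx2 (log2 fold changes 5.18 and 4.46) and Msx1, with Cux1 (1.40) and the Notch ligand Jag1 (0.89), complete the 8.

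Of 10 tested genes of the hedgehog list, 3 were called higher and 0 lower, among them the receptor Ptch1 and the transcription factor Gli1, and the list's median log2 fold change was 1.05, or 0.68 without TG2. Gli1 was at 69.0, 49.3, 74.5 and 65.0 CPM in hair-high skin, against 11.9, 17.7, 10.9 and 14.3 CPM in hair-low skin (log2 fold change 2.25 ± 0.23, edgeR adjusted p = 0.00925). TG2 lay within the range of the wild-type hair-high libraries here. Ptch1 was at 290, 118, 239 and 172 CPM in hair-high skin, against 50.8, 58.7, 49.2 and 60.1 CPM in hair-low skin (log2 fold change 2.01 ± 0.28, edgeR adjusted p = 0.0234). Smo, which transduces the signal, and Sufu, which restrains it, had log2 fold changes of 0.41 and 0.36 and were not called.

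Of 13 tested genes of the Wnt list, 3 were called higher and 0 lower (median log2 fold change 0.38, or 0.68 without TG2): Lef1, the inhibitor Wif1 and the inhibitor Nkd2. Axin2, a general Wnt target, was at 53.3, 58.8, 46.0 and 50.7 CPM in hair-high skin, against 56.3, 56.8, 56.8 and 77.6 CPM in hair-low skin, and was not called. Among 18 tested BMP and FGF signals, Fgf5, the growth factor that ends anagen, was the 1 called. It stood at 12.4, 11.2, 6.35 and 45.1 CPM in hair-high skin, against 0.547, 0.855, 0.458 and 0.438 CPM in hair-low skin (log2 fold change 4.87 ± 0.80, edgeR adjusted p = 0.0378). Fgf5 was also the 1 called gene of 10 in the list of companion layer and outer root sheath, whose median log2 fold change was 0.49, or 1.22 without TG2 and 0.20 without WT2.

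Of 19 tested dermal papilla genes, 3 were called higher and 0 lower, with a median log2 fold change of 1.10. Corin (chromosome 5, 72300025 to 72504473, minus strand), a protease of the papilla that acts on coat colour, was at 10.6, 29.9, 19.6 and 34.2 CPM in hair-high skin, against 0.576, 0.366, 0.485 and 0.637 CPM in hair-low skin (log2 fold change 4.91 ± 0.34, edgeR adjusted p = 0.0037). The homeobox gene Alx4 (34.4, 18.8, 32.7 and 13.8 CPM in hair-high skin, against 2.85, 3.83, 1.78 and 3.30 CPM in hair-low skin) and Wif1 were the others called. For both, TG2 had the highest hair-high level.

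The melanocyte list had the largest share of calls, with 10 of 16 tested genes called higher and 0 lower, and a median log2 fold change of 3.69. Tyr (chromosome 7, 87424771 to 87493512, minus strand), tyrosinase, the first enzyme of melanin synthesis, stood at 23.9, 84.0, 98.3 and 124 CPM in hair-high skin, against 0.490, 2.44, 0.971 and 0.677 CPM in hair-low skin (log2 fold change 5.55 ± 0.81, edgeR adjusted p = 0.0283). Trpm1, a channel of melanocytes, was at 42.9, 169, 153 and 245 CPM in hair-high skin, against 2.25, 2.97, 2.78 and 2.71 CPM in hair-low skin (log2 fold change 5.02 ± 0.49, edgeR adjusted p = 0.00703). TG2 was the lowest hair-high library in both, and still above every hair-low library.

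The other called melanocyte genes take part in the melanosome and its enzymes: Tyrp1, Dct, Pmel, Mlana, Slc45a2, Oca2, Gpr143 and Slc24a5, with log2 fold changes of 2.83 to 5.84. The lineage regulators were not called. Mitf was at 41.2, 44.0, 53.9 and 73.0 CPM in hair-high skin, against 40.6, 35.2, 37.7 and 39.0 CPM in hair-low skin, and Sox10, which Schwann cells express too, at 20.9, 23.6, 15.7 and 16.4 CPM in hair-high skin, against 15.7, 15.3, 15.1 and 17.2 CPM in hair-low skin. The edgeR adjusted p was 0.424 for Mitf and 0.465 for Sox10. The hair-high values of Mitf all lay above its hair-low ones, by little in TG2, and those of Sox10 overlapped.

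The M-box, a word that MITF binds, is shown in the promoters of Tyr and Tyrp1, again as the 250 bases before the RefSeq start (GRCm38.p6) along the gene's strand. The capitals mark TCATGTG, sought on both strands.
Tyr (chr7:87493513-87493762, minus strand): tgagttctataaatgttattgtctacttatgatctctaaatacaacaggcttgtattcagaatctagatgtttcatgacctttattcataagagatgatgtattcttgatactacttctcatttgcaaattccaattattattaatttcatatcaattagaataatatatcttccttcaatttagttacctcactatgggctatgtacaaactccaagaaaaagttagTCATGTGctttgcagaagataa
Tyrp1 (chr4:80833963-80834212, plus strand): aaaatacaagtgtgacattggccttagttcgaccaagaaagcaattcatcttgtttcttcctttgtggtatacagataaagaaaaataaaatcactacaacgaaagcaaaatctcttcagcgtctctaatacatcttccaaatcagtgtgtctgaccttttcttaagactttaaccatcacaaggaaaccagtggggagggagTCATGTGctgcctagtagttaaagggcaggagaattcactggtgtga
TCATGTG began 22 bases before the start in Tyr and 47 bases before it in Tyrp1. Of the 10 called melanocyte genes 6 had a promoter in the table, and 5 of these held the word (83.3%). On the whole melanocyte list it was 5 of 10 (50.0%), against 0 of 12 of the inner root sheath list. Of the 27025 genes with a promoter it was 3.72%. Of all genes called higher, 7 of 94 held it (7.45%). The 6 bases TATAAA and these 7 bases cannot overlap.

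**Figure D3:**
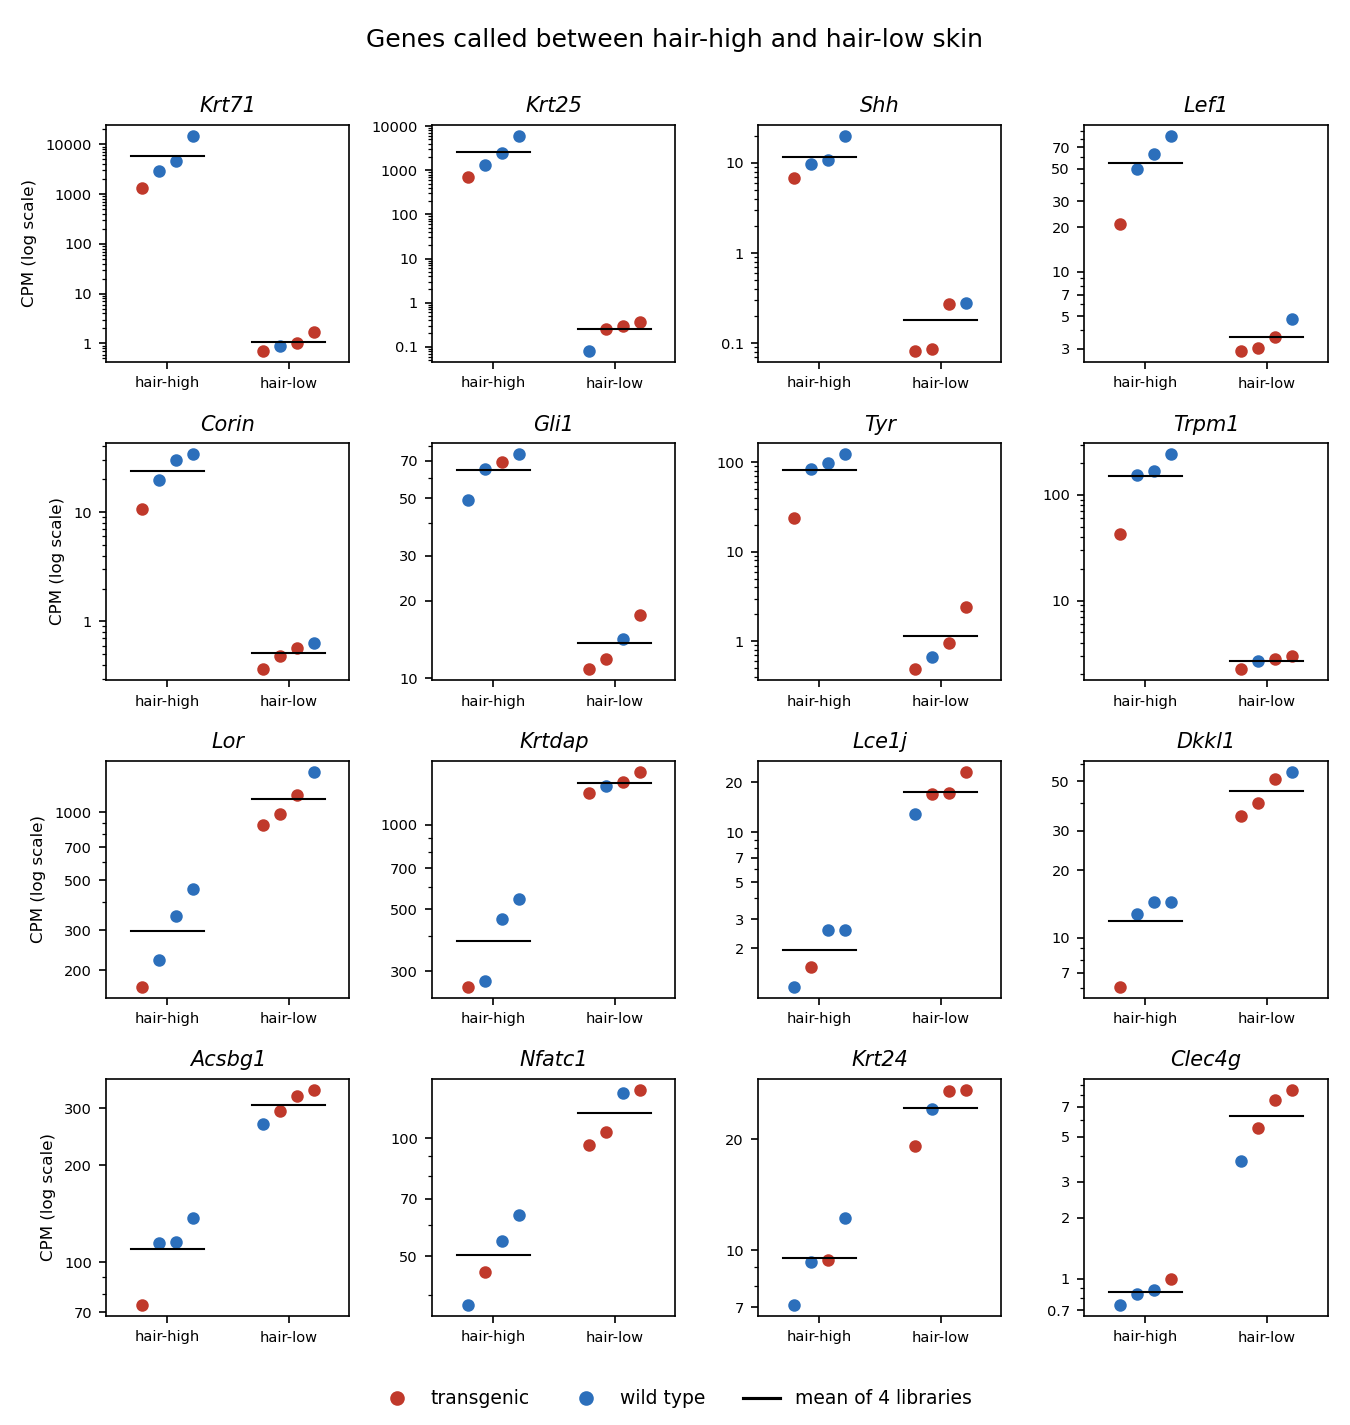
CPM on log axes of 16 called genes in the 4 hair-high (left) and 4 hair-low (right) skin libraries, transgenic in red and wild type in blue, with the mean of each side as a line. The upper 8 genes are higher and the lower 8 lower in hair-high skin without overlap, and TG2, the red point on the left of each panel, is often the lowest of its side.

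The rule for naming genes by size added 4 called genes outside the lists. Crnn, cornulin of the cornified layers, was at 26.9, 58.5, 207 and 1414 CPM in hair-high skin, against 0.0288, 0.0407, 0.108 and 0.0398 CPM in hair-low skin (log2 fold change 10.75, edgeR adjusted p = 0.0339). Kcnk16, a potassium channel, was at 25.1, 37.7, 29.8 and 89.6 CPM in hair-high skin, against 0.0576, 0.122, 0 and 0.0796 CPM in hair-low skin (log2 fold change 8.97, edgeR adjusted p = 0.00434). Ggt1, a glutathione-degrading enzyme, and Foxe1, a forkhead factor of thyroid and hair follicle, had log2 fold changes of 7.67 and 7.31 (edgeR adjusted p = 0.0137 and 0.00593). Foxe1 varied little among hair-high libraries, at 26.6, 20.3, 34.1 and 38.6 CPM, against 0 to 0.326 CPM in hair-low skin.

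No cell cycle gene was called with edgeR, though all 30 had a positive log2 fold change (median 1.41, or 0.76 without WT2), 23 had an unadjusted p under 0.05 and 24 had hair-high values all above the hair-low ones. The smallest adjusted p was 0.0525, for Ube2c. Mki67, the proliferation marker, was at 91.8, 244, 332 and 269 CPM in hair-high skin, against 36.8, 68.0, 56.3 and 47.5 CPM in hair-low skin (log2 fold change 1.67 ± 0.46, edgeR adjusted p = 0.12). TG2 lay nearest to hair-low skin.

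**Figure D4:**
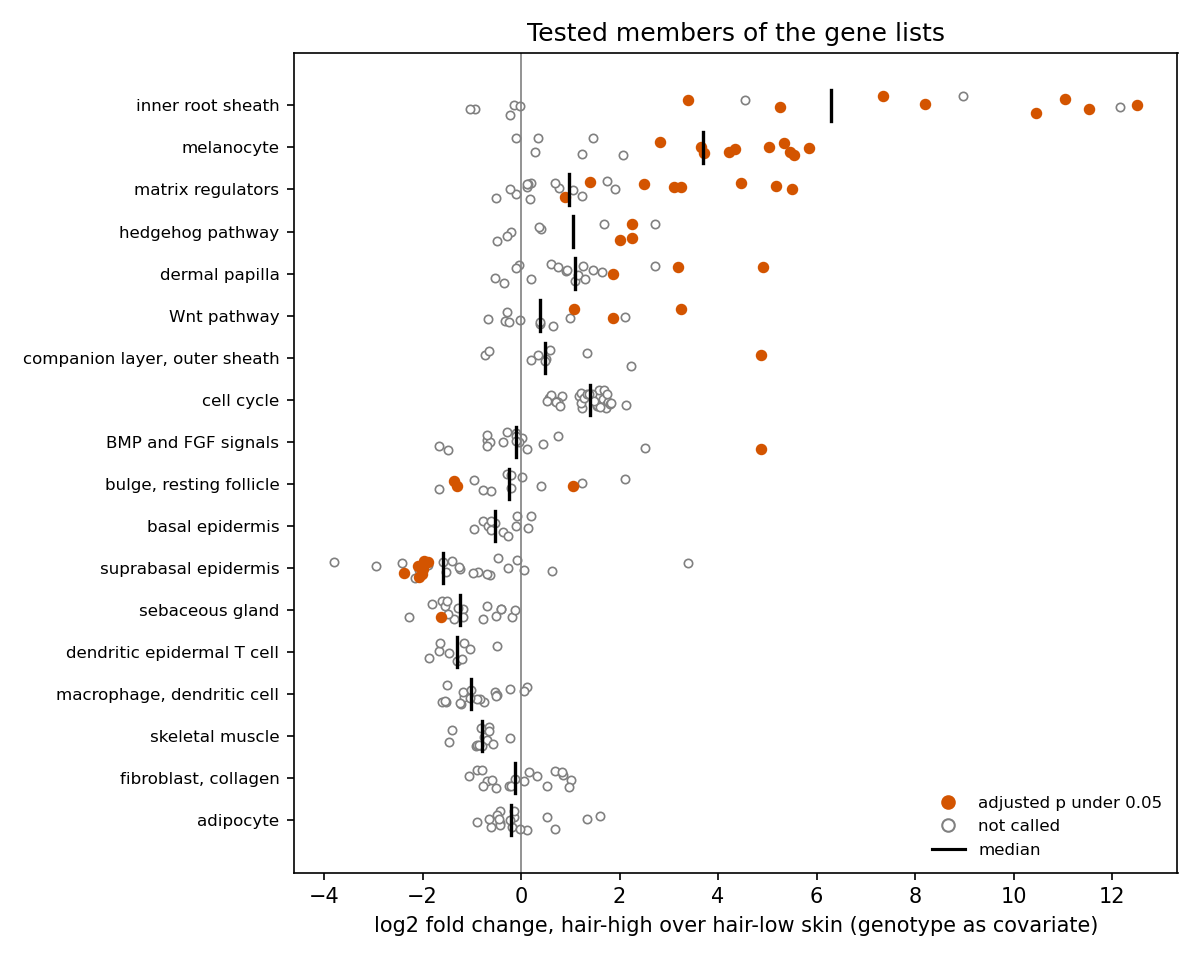
Each point is a tested gene of 18 lists, placed by its log2 fold change of hair-high over hair-low skin, filled where the edgeR adjusted p was under 0.05, with the list's median as a bar. Inner root sheath (median 6.30) and melanocyte genes (3.69) lie farthest right, and suprabasal (-1.58), dendritic epidermal T cell (-1.31) and sebaceous genes (-1.23) farthest left.

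Among the follicle genes linked to rest, 2 of 14 were called lower and 1 higher (median log2 fold change -0.25, or -0.63 without TG2). Nfatc1, a factor that keeps bulge stem cells quiescent, was at 45.7, 54.8, 63.8 and 37.6 CPM in hair-high skin, against 95.8, 133, 103 and 130 CPM in hair-low skin (log2 fold change -1.30 ± 0.21, edgeR adjusted p = 0.0378). Krt24 was at 9.41, 7.09, 12.3 and 9.27 CPM in hair-high skin, against 19.1, 27.2, 27.0 and 24.1 CPM in hair-low skin (log2 fold change -1.36, edgeR adjusted p = 0.0448). The gene called higher was Sox4, with a log2 fold change of 1.05 (edgeR adjusted p = 0.0375). Lgr5, a stem cell receptor, was at 254, 30.5, 69.5 and 47.6 CPM in hair-high skin, against 18.9, 19.3, 12.5 and 40.1 CPM in hair-low skin, and was not called. Its level in TG2 stood apart from the other 7 libraries, as that of Vgll3 did.

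Of 29 tested genes of the differentiated, suprabasal epidermis, on a list of 30, 7 were called lower and 0 higher, and the median log2 fold change was -1.58, or -0.77 without TG2 and -2.43 without WT2. The list summed to 3621, 7319, 10300 and 11731 CPM in hair-high skin, against 17657, 16912, 21050 and 20417 CPM in hair-low skin. TG2 had the lowest sum of all 8 libraries. Lor (chromosome 3, 92080271 to 92083142, minus strand), loricrin, the main protein of the cornified envelope, was at 168, 346, 458 and 223 CPM in hair-high skin, against 982, 882, 1187 and 1510 CPM in hair-low skin (log2 fold change -2.37 ± 0.30, edgeR adjusted p = 0.0205).

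Krtdap, a secreted protein of differentiating keratinocytes, was at 263, 460, 541 and 276 CPM in hair-high skin, against 1421, 1300, 1551 and 1380 CPM in hair-low skin (log2 fold change -2.07, edgeR adjusted p = 0.0303). Krt10, the suprabasal keratin, was at 871, 1816, 2131 and 967 CPM in hair-high skin, against 4328, 4030, 4931 and 5279 CPM in hair-low skin (log2 fold change -2.02, edgeR adjusted p = 0.0471). Lce1a2, Lce1b, Lce1c and Sbsn, further products of the late epidermis, had log2 fold changes of -1.88 to -2.09. Lce1j, outside the list, was at 1.53, 2.56, 2.57 and 1.17 CPM in hair-high skin, against 16.9, 17.3, 23.1 and 12.8 CPM in hair-low skin (log2 fold change -3.11 ± 0.40, edgeR adjusted p = 0.0205). The groups did not overlap in any of these genes. Sprr1b had a positive log2 fold change, 3.39, that was not called.

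Basal epidermal genes were not called in either direction (13 tested, median log2 fold change -0.53, or -0.28 without WT2), and 4 of them had every hair-high value below every hair-low value. Krt5 was at 3163, 2546, 2540 and 3352 CPM in hair-high skin, against 2889, 4046, 4689 and 3800 CPM in hair-low skin, and Krt14 at 1907, 1266, 1446 and 1859 CPM in hair-high skin, against 1571, 1822, 2236 and 1724 CPM in hair-low skin. Their groups overlapped, with log2 fold changes of -0.36 ± 0.27 and -0.08 ± 0.24.

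Further genes called lower by the rule of size were Slc6a14, an amino acid transporter, Lipn, a lipase of differentiating keratinocytes, the prostaglandin receptor Ptgdr, Serpina12, Clec4g, Dkkl1, Fndc9 and the growth factor Btc, with log2 fold changes of -2.35 to -2.77. Dkkl1 was at 6.02, 14.5, 14.4 and 12.7 CPM in hair-high skin, against 51.2, 35.2, 40.2 and 55.1 CPM in hair-low skin (log2 fold change -2.39 ± 0.24, edgeR adjusted p = 0.00752). Clec4g, a lectin, was at 0.995, 0.838, 0.885 and 0.742 CPM in hair-high skin, against 7.58, 5.53, 8.50 and 3.78 CPM in hair-low skin (log2 fold change -2.52, edgeR adjusted p = 0.0159). The hair-high libraries lay close together in Clec4g and the hair-low ones did not.

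All 18 sebaceous gland genes had a negative log2 fold change (median -1.23, or -0.50 without TG2), and 1 was called lower. This was Acsbg1, an acyl-CoA synthetase, at 73.7, 114, 116 and 137 CPM in hair-high skin, against 328, 294, 342 and 268 CPM in hair-low skin (log2 fold change -1.63 ± 0.24, edgeR adjusted p = 0.0297). The list summed to 3575 to 6547 CPM in hair-high skin and to 8088 to 13142 CPM in hair-low skin.

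Markers of other cells were called in neither direction with edgeR in the lists of T cells, dendritic epidermal T cells, B and plasma cells, macrophages and dendritic cells, mast cells and granulocytes, endothelium, smooth muscle, nerve, skeletal muscle, fat, fibroblasts and haemoglobin. Nor was any gene called in the lists of antigen presentation, chemokines, the circadian clock or keratinocyte stress. Outside the lists, the antigen presentation genes H2-Q7, Nlrc5 and Tapbpl were called lower. Their log2 fold changes were -1.46, -1.24 and -0.85 (edgeR adjusted p = 0.0375, 0.0404 and 0.0404). The 9 tested genes of dendritic epidermal T cells, the gamma delta T cells of mouse epidermis, all had a negative log2 fold change (median -1.31), and 7 had hair-high values all below the hair-low ones. Their sum was 123, 56.1, 137 and 65.8 CPM in hair-high skin, against 178, 255, 212 and 148 CPM in hair-low skin. Cd207, langerin of Langerhans cells, was at 12.7, 10.6, 16.2 and 8.19 CPM in hair-high skin, against 36.5, 57.3, 62.5 and 26.2 CPM in hair-low skin, with an edgeR adjusted p of 0.0758.

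The chemokine Ccl17 was at 5.97, 0.246, 0.375 and 0.344 CPM in hair-high skin, against 8.33, 15.6, 22.1 and 0.438 CPM in hair-low skin. Its 4 high values were the 4 transgenic libraries, on both sides of the split. The split left it uncalled (edgeR adjusted p = 0.283). Skeletal muscle markers summed to 9986 to 24992 CPM in hair-high skin and to 18110 to 41410 CPM in hair-low skin. Fibroblast and collagen genes summed to 8449 to 33722 CPM in hair-high skin and to 13397 to 98631 CPM in hair-low skin. The last value is WT2, where Col1a1 alone stood at 29791 CPM, against 1454 to 8867 CPM in the other 7 libraries. The part of these cells in the differences above was not tested. Without WT2, 84 genes were called higher and 63 lower. These held 59 of the 137 and 26 of the 101 genes called with all 8 libraries. Lor, Krtdap, Nfatc1, Krt24 and Hoxc13 were not among them.

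**Figure D5:**
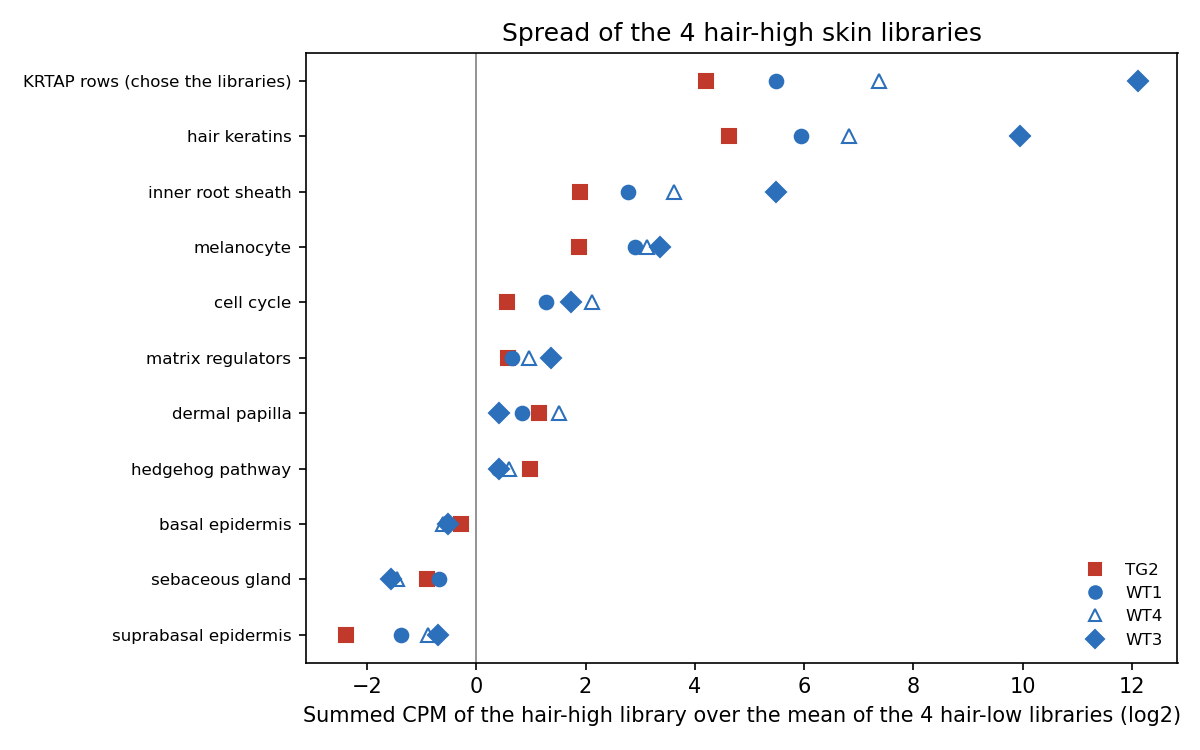
For each hair-high library, the summed CPM of a gene list over the mean of the 4 hair-low libraries, as log2, with TG2 as a red square and WT1, WT4 and WT3 in blue. KRTAP rows range from 4.21 in TG2 to 12.11 in WT3, while matrix regulators range from 0.58 to 1.37 and the suprabasal list from -2.39 in TG2 to -0.70 in WT3.

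The spread among the hair-high libraries was not the same in every list, and no test of that was made. Summed CPM of the highest hair-high library over the lowest was 239 for KRTAP rows, 40.1 for hair keratins and 12 for the inner root sheath, but 2.92 for the cell cycle, 2.79 for melanocyte genes, 2.15 for the dermal papilla, 1.73 for matrix regulators and 1.51 for the hedgehog list. The lists differ in their mean level in hair-low skin, which was 5.52 CPM for KRTAP rows and 10.8 CPM for hair keratins, but 962 CPM for matrix regulators and 529 CPM for the hedgehog list. Single matrix regulators spanned more than their list, as Lef1 did. WT3 was the highest for the shaft, sheath, melanocyte and matrix lists, WT4 for the cell cycle and dermal papilla, and TG2 for hedgehog genes. The same 4 libraries that led by KRTAP sum also led by the summed CPM of some other lists. These were hair keratins, other shaft genes, inner root sheath, matrix regulators, hedgehog, Wnt, dermal papilla, melanocyte and cell cycle. In the remaining lists they did not all lead, as with the companion layer list (3 of the 4 on top) and BMP and FGF signals (2). All lists were read from the same RNA, so this is a description and no independent check.

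Whether the split's effect depended on genotype was asked with an interaction term. It called 0 of 20011 genes (0%) with edgeR and 0 with limma-voom, and 1881 had an unadjusted p under 0.05. Both the transgenic hair-high and the wild-type hair-low side rest on 1 library in that test.

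Blood of the same animals was not used to choose the libraries. Of 11778 blood genes tested 1 was called (0.00849%), and 1249 had an unadjusted p under 0.05. This was Gsta3, a glutathione transferase, at 10.6, 0.449, 0.641 and 0.901 CPM in the blood of hair-high animals, against 0, 0.168, 0.220 and 0 CPM in that of hair-low animals (edgeR adjusted p = 0.0332), and no blood gene was called without TG2, WT3 or WT4. Of the 137 genes called higher in skin, 50 could be tested in blood, where 30 had a positive and 20 a negative log2 fold change. Of the 101 called lower, 65 could be tested, with 25 positive and 40 negative. An unadjusted edgeR p under 0.05 in blood was found for 9 of the 50 and 8 of the 65. The median log2 fold change of all blood genes was 0.02, and no test was made of these counts.

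KRTAP and hair keratin counts in blood summed to 1.26, 7.71, 18.1 and 4.72 CPM in hair-high animals, against 15.6, 10.3, 1.77 and 16.1 CPM in hair-low animals. The groups overlapped, with a mean log2 difference of -0.60 (two-sided exact permutation test, p = 0.571, n = 4 and 4, smallest possible p = 0.0286). Neither this permutation test nor the next took account of genotype. Suprabasal transcripts in blood summed to 30.8, 89.7, 107 and 68.3 CPM in hair-high animals, against 46.4, 18.7, 33.3 and 91.6 CPM in hair-low animals (mean log2 difference 0.73, exact permutation p = 0.314). The effect of the split in skin minus that in blood was called for 54 genes in the higher (0.304%) and 70 in the lower direction (0.394%) of 17758 tested.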

How the data were processed

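Poly(A)-selected, stranded RNA-seq libraries of skin, whole blood and cultured keratinocytes were deposited as whole-number counts per gene, not normalized, made by the authors. STAR 2.5.2, HTSeq 0.6.1, DESeq2 and the mm10 build are named in the submitters' processing notes. Animals are separate per the labels, so p-values measure the spread between animals. Of 24401 table rows, 17342 (71.1%) matched a reference name.

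KRTAP sums are CPM over the column total, and other gene levels are CPM over TMM-scaled totals, so levels compare libraries and not genes. Genes passing filterByExpr were fitted with edgeR 4.0.16 (R 4.3.3) on genotype and split, with a Benjamini-Hochberg adjusted p under 0.05 as the call. limma 3.58.1 (voom) and DESeq2 1.42.0 were alternatives. SE is the log2 fold change over the root of F. The members and lists were chosen with earlier results of these data known. Genes were named by size among non-overlapping calls with a mean of at least 1 CPM, by smallest p within lists, and a fixed few. Those named without a call, Krt34 and Col1a1 were picked after their values were seen. On simulated counts of 18677 genes the skin test recovered 0% of 1.5-fold, 7.46% of 2-fold and 59.1% of 4-fold changes, and 4 of 48 calls were false. Depth per library limits low counts: 19600892 to 40678246 in skin and 11197265 to 18235483 in blood. Blood sums used log2(CPM + 0.1). The result of 1 called gene is not reported here.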

Additional observations from a re-analysis of the deposited data

Results flagged for a closer look

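Single libraries stood apart from the other 3 of their side by Dixon's criterion in 10 of 80 groups of 4 examined. Chance flags about 1 in 20 if values are normally distributed, which CPM need not be. The KRTAP sums are among these groups, and since they ranked the libraries, their flag is a description only. In hair-high skin, WT3 had a KRTAP sum of 24398 CPM (others 102 to 915), a hair keratin sum of 10659 CPM (266 to 1221) and a sum of other shaft genes of 13501 CPM (855 to 2975). TG2 had 778 CPM of Vgll3 (others 43.5 to 72.7) and 5.97 CPM of Ccl17 (0.246 to 0.375). In hair-low skin, TG4 had 719 CPM of other shaft genes (others 529 to 545) and 6032 CPM of fat cell genes (9154 to 9718). WT2 had 671 CPM of Wnt genes (others 488 to 513), 245 CPM of dermal papilla genes (198 to 206) and 98631 CPM of fibroblast and collagen genes (13397 to 16154).

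The effect of the split differed between skin and blood, by edgeR's test of the difference, for 54 genes in the higher and 70 in the lower direction. Leaving out shaft genes, among which Krt35 had a log2 difference of 10.01, the 4 higher genes of smallest p were Krt28, Krt25, Krt71 and Krt73, with log2 differences of 11.07, 12.87, 12.01 and 11.02. The 4 lower ones were Rarres2, Serpina3g, Adgrd1 and SSFA2, with log2 differences of -8.45, -3.03, -4.65 and -2.04. For Rarres2 much of this lay in blood, at 19.2, 3.74, 1.85 and 1.28 CPM against 0, 0, 0 and 0.316 CPM. In skin it was at 61.1, 33.5, 17.5 and 15.9 CPM against 66.6, 52.1, 52.9 and 57.5 CPM, scaled over both tissues. Adgrd1 was also near the floor in blood of hair-low animals, at 0 to 0.391 CPM. So was Krt28 in blood, at 0.129 to 0.32 CPM in hair-high and 0.335 to 1.90 CPM in hair-low animals. The log2 fold change of Krt28 in skin alone was 7.35. Krt25, Krt71 and Krt73 were higher in every blood library than in hair-low skin, as Krt71 at 2.47 to 9.59 CPM against 0.288 to 0.709 CPM.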

How the results depend on the processing

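Against 137 higher and 101 lower calls in skin, DESeq2 gave 1073 and 987, and sex as covariate 611 and 488. No genotype term gave 1029 and 724, and limma-voom 164 and 179 (47.8% higher, against 57.6%). The KRTAP sum as a continuous measure gave 936 and 706, which held 73 of the 137 and 41 of the 101. Leaving out 1 library gave 0 to 285 higher and 0 to 209 lower calls, with 0 and 0 without TG2. Alternatives chosen after seeing the data left TG2 out together with another choice: DESeq2 then gave 902 and 477, no genotype term 1854 and 1229, and limma-voom and sex as covariate each 0 and 0. The cause was not tested. The 44 named called genes kept their direction in all 1010 combinations of a gene and an alternative. They were called on these same libraries, so this is no independent check. Krt14 reversed with the continuous measure (0.0081, log2) and without WT2 (0.033), and was -0.18 without TG2. Vgll3 reversed without TG2 (-0.75), with DESeq2 (-0.74), limma-voom (-0.80), no genotype term (-0.88) or sex as covariate (-0.58) there too, and was 2.91 without WT2.

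In blood, the 1 call became 84 with DESeq2, 0 with limma-voom, 367 with no filter, 83 with sex as covariate, and 0 to 353 on leaving out 1 library. Skin minus blood gave 395 calls with no filter, against 124. A replicate block gave 461 higher and 345 lower calls in skin and 45 in blood. Deviations of same-numbered libraries from their genotype means correlated at 0.0814, -0.502, -0.121 and 0.0856. After removing genotype and split they correlated at 0.254, 1, 0.354 and 0.388, where the value of 1 is fixed by the fit, since TG2 and WT2 are each alone in their cell. Whether the numbers pair the samples was thus not settled. Depth limits rows with few counts, and 40 of 55 KRTAP rows had none in hair-low skin.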
